A study of Rattus norvegicus with 12 samples.

Results

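The genes described here are 10 immediate early and stress cytokine genes of rat liver: Egr1, Fos, Fosl2, Jun, Junb, Atf3, Ier2, Ier3, Myc and Gdf15. They were taken as every probe whose gene name in the scanner files is one of these symbols. Each gene had 1 probe, and all 10 were among the 24298 genes that passed the filter on dim probes, of 35710 gene names on the array. The question of the series is how glucocorticoids regulate liver genes in males and females.

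The animals were Sprague-Dawley rats of 8 to 10 weeks, and both the treated and the control rats had been adrenalectomized, so that they lacked their own adrenal glucocorticoids. Male rats and, separately, female rats in diestrus 1 were injected intraperitoneally with dexamethasone, a synthetic glucocorticoid, at 1 mg/kg, or received 400 µl of phosphate buffered saline as vehicle. Liver was taken 6 h later. The 4 groups are therefore male dexamethasone, male vehicle, female dexamethasone and female vehicle, each with 3 arrays. RNA of 3 animals was pooled for each array, 9 animals per group, so the p-values rest on the spread between pools and between slides and say nothing of single animals.

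Immediate early genes are transcribed within minutes of a growth factor or stress signal, without new protein synthesis, and their transcripts are usually short-lived. Many encode transcription factors: FOS and JUN proteins pair to form AP-1, and EGR1 is a zinc finger factor induced through MAP kinases, ELK proteins and serum response factor. Gdf15 encodes a secreted stress cytokine that acts on the brainstem receptor GFRAL and lowers food intake, and ATF4, CHOP, EGR1 and p53 are known inducers of it. In liver these genes respond to partial hepatectomy, injury and isolation of cells, and the activated glucocorticoid receptor is known to restrain AP-1 activity.

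The probes of 4 of the genes are shown first, since the changes below are changes in hybridization to them. Each is 60 bases long, 5′ to 3′, in lower case; the capitals in Junb mark the stop codon that ends its reading frame.
Junb: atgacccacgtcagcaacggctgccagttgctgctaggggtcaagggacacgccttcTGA
Gdf15: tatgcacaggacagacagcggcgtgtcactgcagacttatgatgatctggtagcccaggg
Fosl2: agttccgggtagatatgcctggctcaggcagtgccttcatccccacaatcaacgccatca
Fos: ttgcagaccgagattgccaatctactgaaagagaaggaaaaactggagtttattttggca
The Egr1, Jun and Myc probes were printed 10 times on every array. The SD between such copies had a median of 0.10 for Egr1, 0.06 for Jun and 0.07 for Myc on the log2 scale. That spread covers spot error within an array and not the spread between pools.

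RefSeq promoters, from 250 bases before to 50 after the transcription start on the rat assembly GRCr8, were at hand for 5 of the 10 genes, 6 promoters in all. Both strands were searched for 8 motifs, and the share of all 33365 promoters of that length with a match is given beside each. The Egr1 promoter held 2 CArG boxes, the letters bound by serum response factor, CCATATTAGG from -105 and CCATATATGG from -83 relative to the start, against 1.63% of all promoters with at least 1. The motifs of 3 further promoters are shown in capitals in the last 150 bases before the start.
Junb, chr19:40080976-40081125, plus strand: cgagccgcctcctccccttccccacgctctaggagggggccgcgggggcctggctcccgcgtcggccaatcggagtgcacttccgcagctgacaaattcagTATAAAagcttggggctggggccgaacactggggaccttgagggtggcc
Gdf15, the second of its 2 promoters, chr16:18839115-18839264, plus strand: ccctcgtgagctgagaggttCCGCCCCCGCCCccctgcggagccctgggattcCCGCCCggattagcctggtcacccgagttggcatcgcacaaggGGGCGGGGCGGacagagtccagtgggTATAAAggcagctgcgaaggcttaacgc
Ier2, chr19:40399223-40399372, plus strand: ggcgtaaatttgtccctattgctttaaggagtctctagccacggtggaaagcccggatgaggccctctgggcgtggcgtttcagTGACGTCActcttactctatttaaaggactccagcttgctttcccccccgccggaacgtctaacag
The capitals mark TATAAA in Junb and Gdf15 (14.2% of all promoters), TGACGTCA, the cyclic AMP response element, in Ier2 (1.83%), and in Gdf15 5 copies of GGGCGG on either strand (33.1%), 2 of them overlapping the match to GCGNGGGCG, the letters EGR1 binds (4.99%). The Fosl2 promoter held 2 matches to GCGNGGGCG, and each overlapped a match to the other GC-rich motif searched. TGANTCA, the AP-1 element (7.34%), TGATGNAAT, the ATF4 element (1.09%), and the palindromic glucocorticoid response element (0.441%) were in none of the 6. A match is a description of the letters only.

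The livers carried the marks of the labelled tissue and treatment. All 8 hepatocyte markers were well above background on every array, and the glucocorticoid-induced genes rose in both sexes: Fkbp5, a chaperone of steroid receptors, by 4.17 in males and 4.54 in females on the log2 scale, Tsc22d3 by 3.20 and 2.84, Per1 by 3.04 and 2.71, and Tat by 2.46 and 1.98, each with an adjusted p of 0.00153 or less (limma). The share of spots well above background ranged over the arrays from 52.96% to 69.7%, and slide 5, which carried replicate 3 of every group, had dimmer arrays than the rest. Levels below are log2 intensities relative to the 75th percentile of the array. A level of 1 probe cannot be compared with that of another, so each gene is compared with itself across groups.

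**Figure D1:**
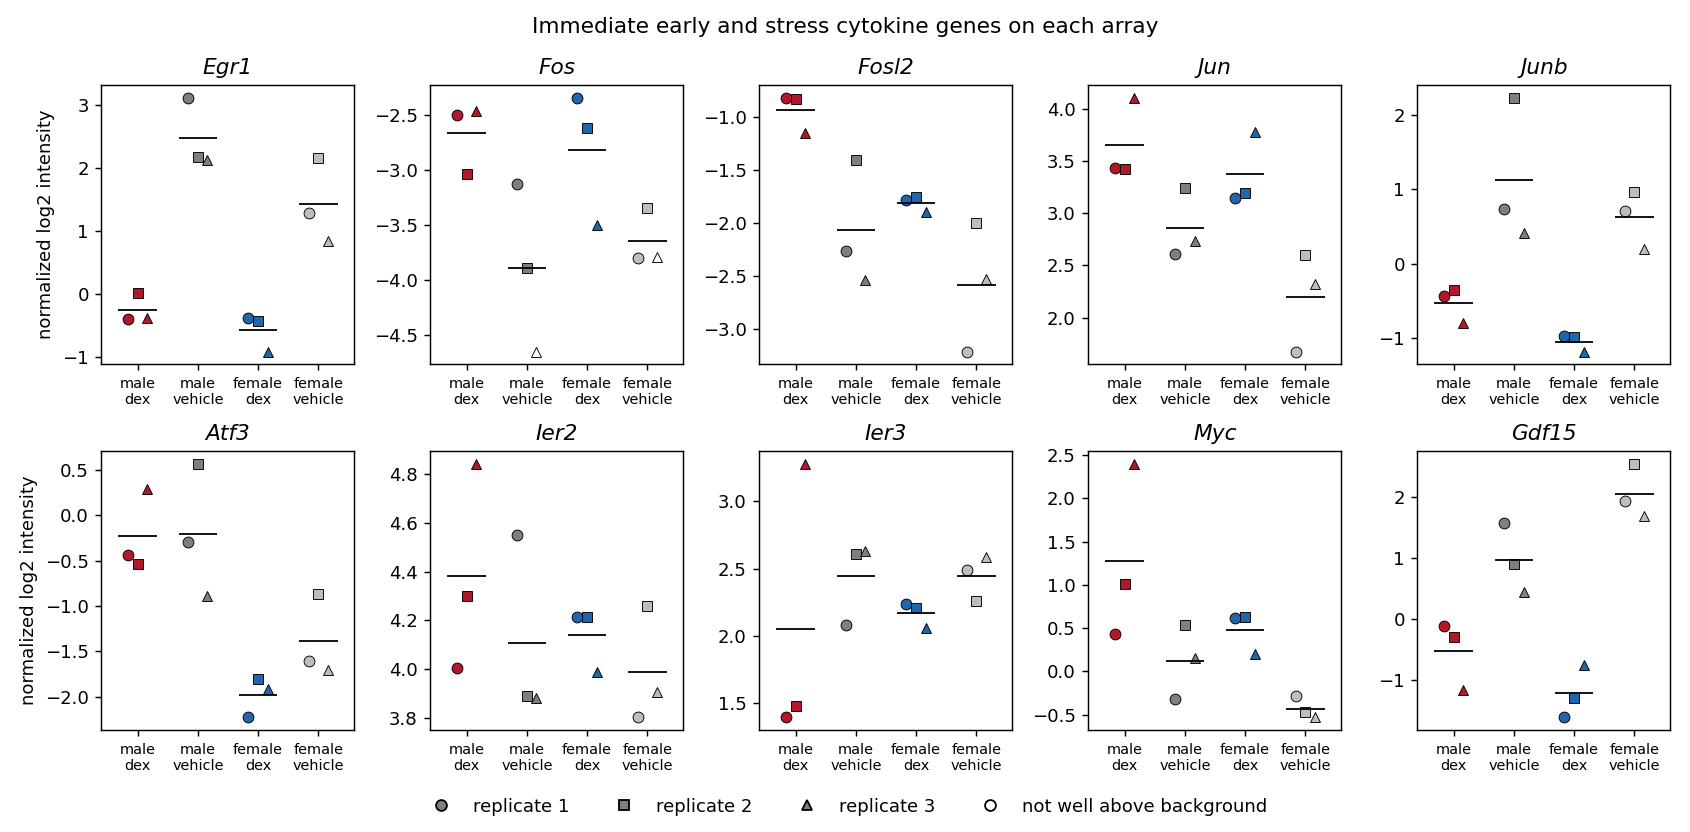
Normalized log2 intensity (vertical axis, its range differing between panels) of the 10 genes on each of the 12 arrays, by group: male dexamethasone, male vehicle, female dexamethasone and female vehicle. Bars are means of 3 arrays, symbols are replicates and open symbols are arrays where the probe was not well above background; Egr1, Junb and Gdf15 lie lower in both dexamethasone groups than in vehicle, with no overlap.

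Egr1, Junb and Gdf15 fell after dexamethasone in both sexes, Fosl2 rose in males and Jun rose in females. That is 4 of 10 genes called in males, against 20.1% of all genes tested, and 4 of 10 in females, against 24.4%, at an adjusted p under 0.05 (limma with Benjamini-Hochberg adjustment over all genes). In each sex 3 of the 10 fell and 1 rose. Over all genes 10.8% fell and 9.34% rose in males, and 12.6% fell and 11.7% rose in females. With 10 genes these counts are small, and the genes were chosen with earlier results of these data known. Arrays of the groups compared did not overlap for 6 genes in males and 8 in females, against 35.2% and 43.1% of all genes. The median difference of the 10 genes was 0.13 in males and -0.06 in females, beside 0.01 and -0.08 over all genes; 5 of the 10 differences were above 0 and 5 below in each sex.

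**Figure D2:**
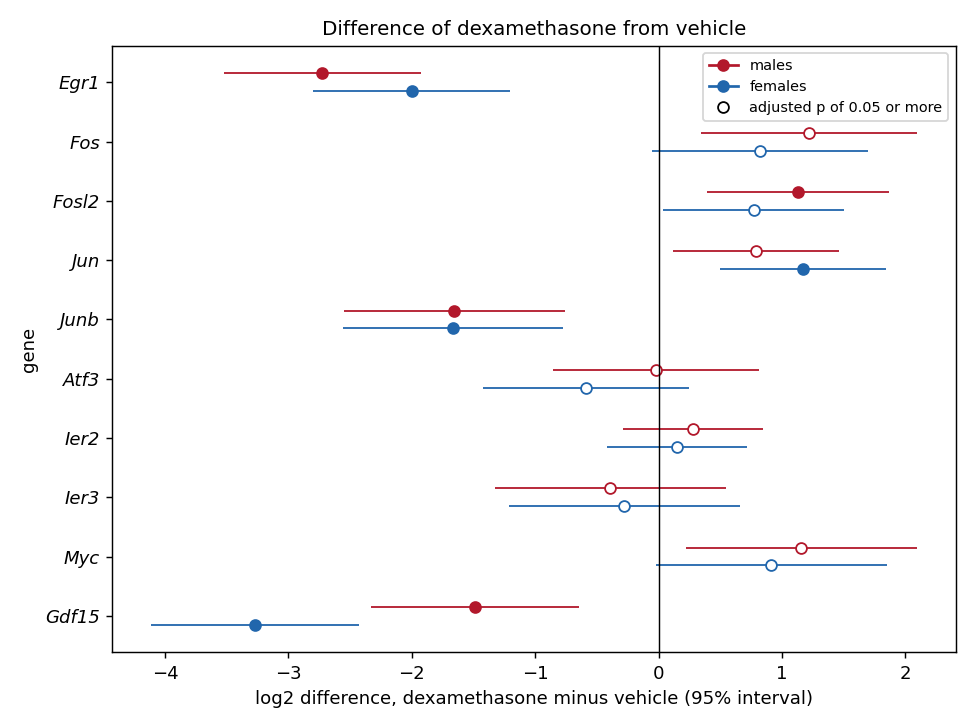
Log2 difference of dexamethasone minus vehicle (horizontal axis) with its 95% interval, for males and females, by gene. Filled points have an adjusted p under 0.05: Egr1, Junb and Gdf15 lie left of 0 in both sexes, Fosl2 right of 0 in males and Jun right of 0 in females.

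Egr1, the zinc finger factor, had levels of -0.40, 0.01 and -0.38 on the 3 male dexamethasone arrays, against 3.11, 2.18 and 2.12 on the male vehicle arrays. It had -0.38, -0.43 and -0.91 on the female dexamethasone arrays, against 1.29, 2.16 and 0.84 on the female vehicle arrays. Every dexamethasone array was lower than every vehicle array, and the nearest arrays of the males were 2.11 apart. Egr1 fell by 2.72 in males (SE 0.36, 6.61-fold lower, adjusted p = 0.000495) and the female difference was -2.001 (SE 0.36, 4.00-fold lower, adjusted p = 0.00287). It remained called in both sexes under every alternative that was run, with slide as a block (-2.61 and -1.90) among them. Without slide 5 the female groups shared no slide, so that fit cannot tell treatment from slide in females. Between arrays of the same slide the difference was -2.58 (slide 1) and -2.50 (slide 5) in males and -1.76 (slide 5) in females.

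The 5 genes most like Egr1 over the 12 arrays were Tbc1d31 (Pearson r of 0.98), Tpm1 (0.96), Slc34a2 (0.96), Nadk2 (0.96) and Arhgef19 (0.95). These r values describe 12 arrays that share the treatment contrast and the slides. Arhgef19 fell by 3.85 in males and by 2.19 in females, Slc34a2 by 3.20 and by 2.09, and Tpm1, an actin-binding tropomyosin, by 1.40 and by 1.18.

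Gdf15, the stress cytokine, had levels of -0.11, -0.28 and -1.15 in male dexamethasone livers, against 1.57, 0.90 and 0.44 in male vehicle livers. It had -1.61, -1.29 and -0.74 in female dexamethasone livers, against 1.94, 2.55 and 1.68 in female vehicle livers. The groups of a sex did not overlap, and the vehicle levels of females were all above those of males. Gdf15 fell by 1.48 in males (SE 0.38, 2.80-fold lower, adjusted p = 0.0195) and by 3.27 in females (SE 0.38, 9.65-fold lower, adjusted p = 0.000232). The female effect minus the male effect was -1.79 (95% interval -2.98 to -0.59), which missed the threshold over all genes (unadjusted p of 0.00742, adjusted p = 0.343). With slide as a block that difference was -1.10 (adjusted p = 0.328).

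The female call for Gdf15 was lost under no alternative, but its size was smaller with slide as a block (-2.38, adjusted p = 0.0110) and with scan day as a block (-2.35, adjusted p = 0.00422). In males it was lost without male vehicle 1 (-1.19, adjusted p = 0.0687), without male dexamethasone 3 (-1.17, adjusted p = 0.0722) and with only the 2 male groups in the fit (adjusted p = 0.0570), and it held with slide as a block (-1.28, adjusted p = 0.0146). The genes most like Gdf15 over the 12 arrays were Rab38 (r of 0.97), Ctr9 (0.96), Lamtor1 (0.96), Tmem39b (0.96) and Fbln2 (0.96). Rab38, a small GTPase of vesicle traffic, fell by 1.08 in males and by 2.01 in females. Fbln2 fell by 1.13 in females and was -0.52 in males (adjusted p = 0.0779).

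Junb, a JUN family partner in AP-1, had levels of -0.44, -0.36 and -0.80 in male dexamethasone livers, against 0.73, 2.23 and 0.41 in male vehicle livers. It had -0.97, -0.99 and -1.18 in female dexamethasone livers, against 0.71, 0.96 and 0.19 in female vehicle livers. The groups of a sex did not overlap, and male vehicle 2 was the highest of all 12 arrays. Junb fell by 1.65 in males (SE 0.40, 3.15-fold lower, adjusted p = 0.0154) and by 1.67 in females (SE 0.40, 3.17-fold lower, adjusted p = 0.0135). The effect in females minus that in males was -0.01 (95% interval -1.28 to 1.25). In males the call was lost without male dexamethasone 3 (-1.52, adjusted p = 0.0562) and with only the 2 male groups in the fit (adjusted p = 0.0735). In females it was lost with slide as a block (-1.32, adjusted p = 0.0943), with scan day as a block (-1.22, adjusted p = 0.0839) and without female vehicle 2 (-1.50, adjusted p = 0.0534).

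Jun encodes the DNA-binding partner of FOS proteins in AP-1, and its differences had the opposite sign to those of Junb. Its levels were 3.43, 3.42 and 4.10 in male dexamethasone livers, against 2.61, 3.24 and 2.73 in male vehicle livers. They were 3.14, 3.19 and 3.77 in female dexamethasone livers, against 1.68, 2.60 and 2.32 in female vehicle livers. Every dexamethasone array of a sex was above its vehicle arrays. Jun rose by 1.17 in females (SE 0.30, 2.25-fold, adjusted p = 0.0185), while the difference in males was 0.79 (SE 0.30, adjusted p = 0.0984). The female minus the male effect was 0.38 (95% interval -0.57 to 1.33), so the sexes were not shown to differ. The female call was lost with slide as a block (1.39, adjusted p = 0.116), with scan day as a block (1.46, adjusted p = 0.0668), without the 4 arrays of slide 5 (1.03, adjusted p = 0.0687), without female vehicle 1 (0.91, adjusted p = 0.0681) and without female dexamethasone 3 (0.97, adjusted p = 0.0618).

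Fosl2 encodes FRA-2, a FOS family protein. Its levels were -0.82, -0.83 and -1.16 in male dexamethasone livers, against -2.26, -1.41 and -2.53 in male vehicle livers. They were -1.78, -1.75 and -1.90 in female dexamethasone livers, against -3.21, -2.004 and -2.53 in female vehicle livers. The groups did not overlap in either sex, and vehicle 2 was the highest vehicle array of both. Fosl2 rose by 1.13 in males (SE 0.33, 2.19-fold, adjusted p = 0.0361), and the difference in females was 0.77 (SE 0.33, adjusted p = 0.119). The male call was lost under many alternatives, among them no filter on dim probes (adjusted p = 0.0621), only the 2 male groups in the fit (adjusted p = 0.0691), slide as a block (adjusted p = 0.0978), scan day as a block (adjusted p = 0.0996) and the fit without slide 5 (adjusted p = 0.184). It was also lost without male vehicle 1 (0.101), male vehicle 3 (0.125), male dexamethasone 1 (0.0954), male dexamethasone 2 (0.0971), male dexamethasone 3 (0.0575), female dexamethasone 1 (0.0538) or female dexamethasone 2 (0.0533), the values in parentheses being adjusted p. The call held with normexp background correction, where the male difference was 0.61 (adjusted p = 0.0236).

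Fos, the founding member of its family, gave a dim signal. Its levels were -2.50, -3.04 and -2.47 in male dexamethasone livers, against -3.13, -3.89 and -4.65 in male vehicle livers. They were -2.34, -2.62 and -3.50 in female dexamethasone livers, against -3.80, -3.34 and -3.79 in female vehicle livers. Vehicle 3 of each sex was not well above background; the male groups did not overlap and the female groups did. The difference was 1.22 in males (SE 0.40, adjusted p = 0.0539) and 0.82 in females (SE 0.40, adjusted p = 0.155), neither past the threshold. In males Fos was called with slide as a fixed block (1.69, adjusted p = 0.00754), slide as a random block (adjusted p = 0.00543), scan day as a block (adjusted p = 0.00729), the replicate number as a block (adjusted p = 0.0339), median scaling (adjusted p = 0.0472) and a stricter filter (adjusted p = 0.0433), and without male vehicle 1 (1.60, adjusted p = 0.0172) or female dexamethasone 3 (adjusted p = 0.0376). Male vehicle 1 was the only array of its slide and of its scan day. The fixed slide block and the scan day block therefore take it out of the comparison, so these fits and the fit without it are not independent. Without male vehicle 3, the array not well above background, the male difference was 0.84 (adjusted p = 0.175), and without the 4 arrays of slide 5 it was 0.74 (adjusted p = 0.196). With normexp background correction the differences were 0.33 in males and 0.08 in females, and with slide as a fixed block the female difference was 0.11.

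Myc, a transcription factor of growth and ribosome biogenesis, had levels of 0.43, 1.01 and 2.40 in male dexamethasone livers, against -0.32, 0.54 and 0.15 in male vehicle livers. It had 0.62, 0.63 and 0.20 in female dexamethasone livers, against -0.29, -0.47 and -0.53 in female vehicle livers. Male dexamethasone 3 was the highest of all 12 arrays; the male groups overlapped and the female groups did not. The difference was 1.16 in males (SE 0.42, adjusted p = 0.0827) and 0.91 in females (SE 0.42, adjusted p = 0.143), neither past the threshold. That SE rests on a spread shared by all groups. The SD was 1.01 in male dexamethasone livers, against 0.24 in female dexamethasone and 0.13 in female vehicle livers. Myc was called in males without male dexamethasone 1 (1.58, adjusted p = 0.0230), and in females without male dexamethasone 3 (0.91, adjusted p = 0.0269) or with only the 2 female groups in the fit (adjusted p = 0.0214). The male difference was 0.60 without male dexamethasone 3, and the female difference was 0.44 with slide as a block.

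Ier3 encodes an immediate early regulator of cell survival. It had 1.39, 1.48 and 3.28 in male dexamethasone livers, against 2.08, 2.61 and 2.63 in male vehicle livers, and male dexamethasone 3 was the highest of all 12 arrays. It had 2.23, 2.20 and 2.06 in female dexamethasone livers, against 2.49, 2.26 and 2.58 in female vehicle livers, with no overlap. The difference was -0.39 in males (95% interval -1.33 to 0.54, adjusted p = 0.603) and -0.28 in females (-1.21 to 0.66, adjusted p = 0.670). Both intervals rest on a spread shared by all groups. The SD was 1.07 in male dexamethasone livers, against 0.09 in female dexamethasone and 0.17 in female vehicle livers. Without male dexamethasone 3 it was called lower in males (-1.01, adjusted p = 0.0104), and likewise without the 4 arrays of slide 5 (-0.91, adjusted p = 0.0346). Within slide 1 the male difference was -1.22 and within slide 5 it was 0.65.

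**Figure D3:**
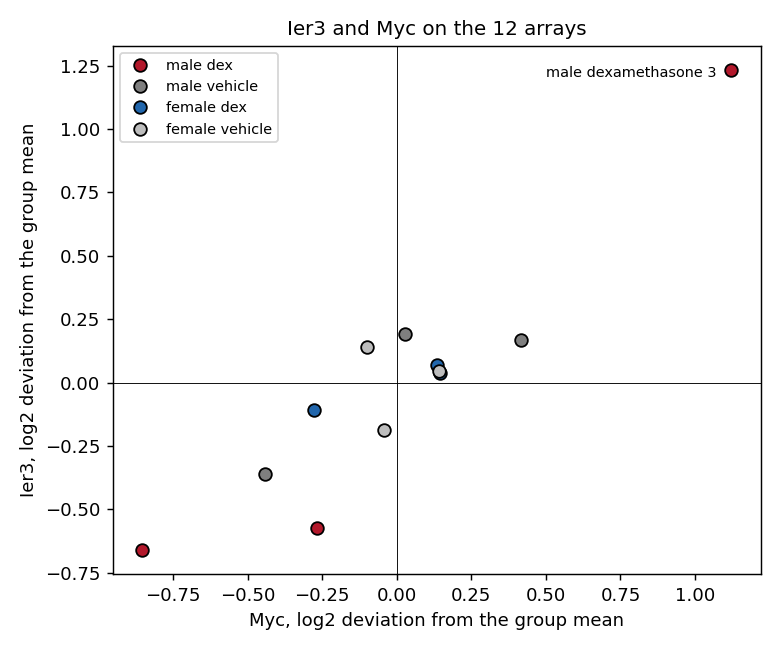
Deviation of Ier3 (vertical axis) from its group mean against that of Myc (horizontal axis), both log2, for the 12 arrays coloured by group. Male dexamethasone 3 lies far to the upper right, and the remaining 11 arrays lie between -0.9 and 0.5 on both axes.

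Over the 12 arrays the deviations of Ier3 and Myc from their group means had a Pearson r of 0.93. It was 0.84 over the 11 arrays other than male dexamethasone 3. The group means for the second value still included male dexamethasone 3, so that value is not free of its influence. The 45 pairs among the 10 genes had r values of -0.76 to 0.93 with a median of 0.24, and 33 were above 0, while the median r of a member with any gene was 0.00. These are descriptions over arrays that share slides. The same array had the highest Atf3, Ier2 and Jun levels of its group.

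Ier2, an immediate early nuclear protein, and Atf3, a stress-induced bZIP repressor, were not called in either sex. Ier2 had 4.01, 4.30 and 4.84 in male dexamethasone livers, against 4.55, 3.89 and 3.88 in male vehicle livers, and 4.21, 4.21 and 3.99 in female dexamethasone livers, against 3.80, 4.26 and 3.91 in female vehicle livers. The groups overlapped in both sexes. Its difference was 0.28 in males (95% interval -0.29 to 0.84) and 0.15 in females (-0.42 to 0.72), so changes beyond 1 on the log2 scale lay outside both intervals. Atf3 had -0.44, -0.54 and 0.29 in male dexamethasone livers, against -0.30, 0.57 and -0.89 in male vehicle livers, and -2.23, -1.80 and -1.91 in female dexamethasone livers, against -1.60, -0.87 and -1.70 in female vehicle livers. The male groups overlapped and the female groups did not. Its difference was -0.02 in males (-0.86 to 0.81) and -0.59 in females (-1.43 to 0.25, adjusted p = 0.284). Between arrays of 1 slide the male difference was -1.01 on slide 1 and 1.18 on slide 5.

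None of the 10 genes was called in the test of the female minus the male dexamethasone effect, against 0.0288% of all genes, by limma; 1, Gdf15, had an unadjusted p under 0.05. The differences of effect were 0.72 for Egr1 (95% interval -0.40 to 1.85), -0.39 for Fos (-1.63 to 0.85), -0.36 for Fosl2 (-1.40 to 0.68) and -0.24 for Myc (-1.57 to 1.08). These intervals leave room for sex differences of more than 2-fold for each of these genes.

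**Figure D4:**
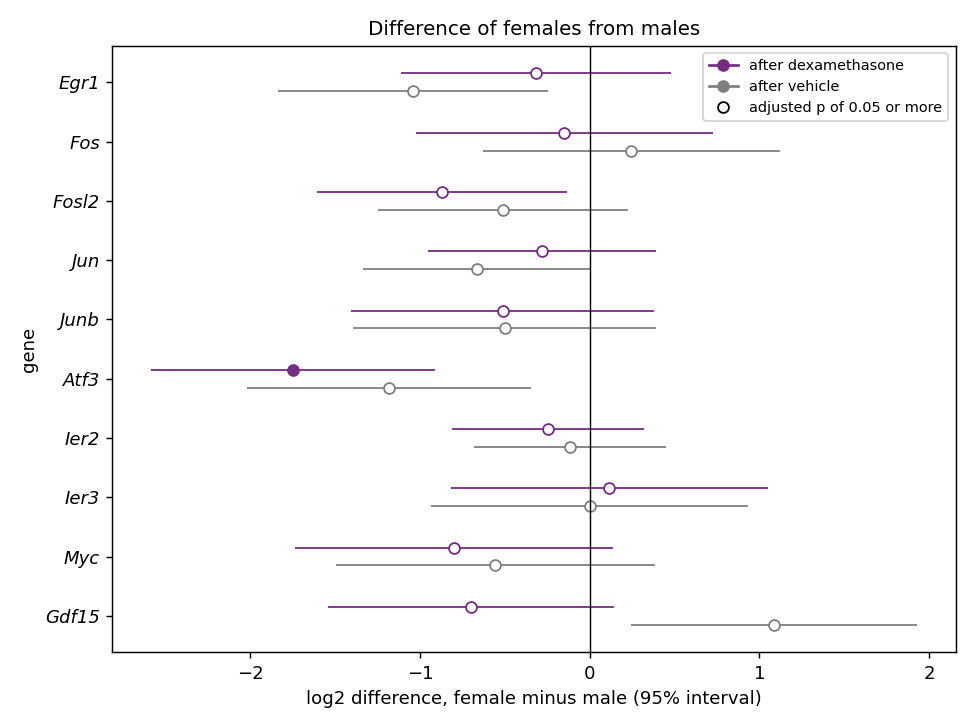
Log2 difference of females minus males (horizontal axis) with its 95% interval, after dexamethasone and after vehicle, by gene. The Atf3 difference after dexamethasone, -1.75, is the filled point; all others have an adjusted p of 0.05 or more.

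Between the sexes, Atf3 was lower in females than in males after dexamethasone, by 1.75 on the log2 scale (SE 0.38, 3.36-fold lower, adjusted p = 0.0414). It was the 1 gene of 10 called in that comparison, against 2.31% of all genes. Its 3 female dexamethasone arrays, given above, all lay below the 3 male ones. After vehicle the Atf3 difference was -1.18 (SE 0.38, adjusted p = 0.235). The call after dexamethasone was lost under most alternatives, with slide as a fixed block (-1.48, adjusted p = 0.307), as a random block (adjusted p = 0.0756), with scan day as a block (adjusted p = 0.281), median scaling (adjusted p = 0.0556), no filter (adjusted p = 0.0666), without slide 5 (adjusted p = 0.0836), and without any of 8 single arrays (adjusted p of 0.0578 to 0.154). The single arrays were male vehicle 1, all 3 of male dexamethasone, female vehicle 1 and all 3 of female dexamethasone. The difference within slide 5 was -2.20.

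After vehicle none of the 10 genes differed between females and males by limma, against 1.71% of all genes, and 3 had an unadjusted p under 0.05. Gdf15 was 1.09 higher in females (SE 0.38, adjusted p = 0.303), Egr1 was -1.04 (SE 0.36, adjusted p = 0.292) and Atf3 is given above. Gdf15 was called with scan day as a block (1.27, adjusted p = 0.0331). Arrays did not overlap for Jun and Gdf15 after vehicle, against 15.6% of all genes, and for Fosl2, Junb and Atf3 after dexamethasone, against 23.1%. The Fosl2 difference after dexamethasone was -0.87 (SE 0.33, adjusted p = 0.235) and that of Junb was -0.51 (SE 0.40, adjusted p = 0.592).

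Genes of the surrounding pathways were read from 7 lists, chosen with earlier results of these data known, so their counts are descriptions. They stand against the shares of all genes, 9.34% higher and 10.8% lower in males and 11.7% higher and 12.6% lower in females. Of 17 measured MAP kinase genes, 1 rose and 1 fell in males and 2 rose and 3 fell in females. These genes lie upstream of immediate early transcription. The male counts of this fit are below those shares, but 3 fell under quantile normalization and with the authors' deposited values. With slide as a fixed block 2 fell in males. In females 4 rose under median scaling, and 1 under quantile normalization and with slide as a fixed block. Mapk14, the kinase p38 alpha, rose by 0.69 in males and by 0.55 in females, and Mapk9, the kinase JNK2, fell by 0.79 and by 1.02. Map2k4, which phosphorylates JNK and p38, rose by 1.51 in females and was 0.86 in males (adjusted p = 0.0872). Rps6ka1 fell by 0.79 in females and was -0.49 in males (adjusted p = 0.122). Without slide 5 no gene of the list rose in males. The number that fell in males was 2 without male vehicle 2, and the number that rose in females was 1 without female vehicle 1 or 2 or any female dexamethasone array.

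Other serum-response immediate early genes moved in both directions: of 36 measured, 13 rose and 7 fell in males, and 10 rose and 7 fell in females, against 9.34% and 10.8% of all genes in males and 11.7% and 12.6% in females. The median difference was 0.07 in males and 0.05 in females, beside 0.01 and -0.08 over all genes. Gadd45b, a stress sensor, rose by 4.39 in males and by 3.53 in females, and Ccn2, connective tissue growth factor, by 4.04 and by 3.75. Plk3, a polo-like kinase, rose by 3.32 and by 3.06, and the small GTPase Rhob by 2.13 and by 3.15. Their adjusted p was 0.000152 or less. These 4 were the called genes of the list with the largest mean effects, and they do not stand for the 7 that fell in each sex. Direction therefore differed within the class: Egr1 and Junb fell in livers where these 4 rose.

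Of 12 measured AP-1 and bZIP partner genes, 2 rose and 2 fell in males, and 1 rose and 2 fell in females, at most 2 of 12 in a direction and so not far from the all-gene shares. Batf3 fell by 1.18 in males and by 1.76 in females, and Batf by 1.05 and by 1.40; both act as AP-1 partners in leukocytes, and Batf was well above background on only 1 of 3 male dexamethasone arrays. Cebpd, an acute phase regulator, rose by 1.05 in males and by 1.27 in females. Cebpb rose by 1.02 in males and was 0.19 in females (adjusted p = 0.576), and the test of that sex difference gave an adjusted p of 0.443. Under quantile normalization, median scaling and the authors' deposited values 1 gene rose and 1 fell in males. With slide as a fixed block 1 gene rose and 0 fell in males, and 0 rose and 0 fell in females. Without slide 5 the counts were 0 and 0 in males, and 0 higher and 1 lower in females. In males 0 fell without male vehicle 2, male dexamethasone 1 or male dexamethasone 3, and 1 fell without male vehicle 1 or 3, male dexamethasone 2, female vehicle 1 or 2, or female dexamethasone 1. The number that rose in males was 1 when any array other than male vehicle 2 was left out. In females 0 rose without female vehicle 2, female dexamethasone 1 or female dexamethasone 2.

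**Figure D5:**
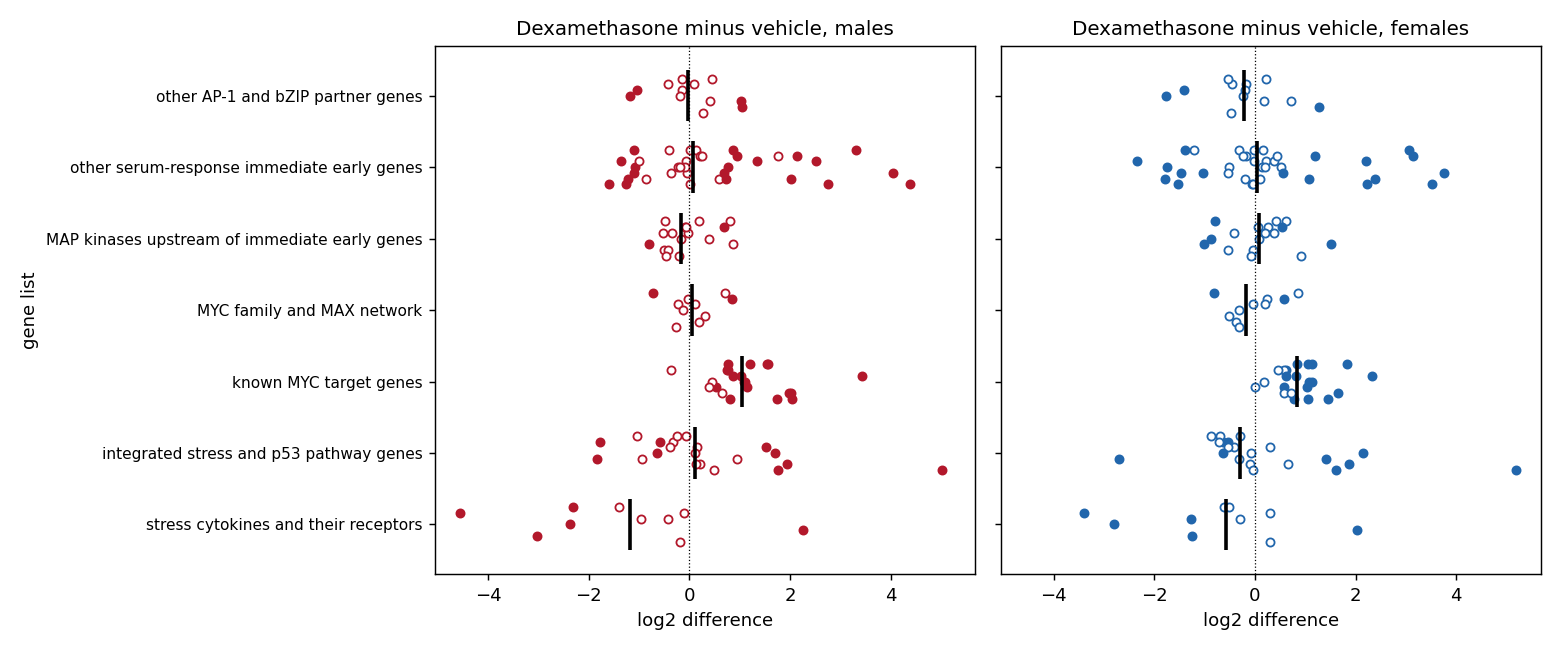
Log2 difference of dexamethasone minus vehicle (horizontal axis) for the measured genes of 7 pathway lists, males on the left and females on the right. Points are genes, filled at an adjusted p under 0.05, and bars are list medians; the known MYC target genes have medians of 1.05 in males and 0.83 in females, while the medians of the other lists are 0.11 or lower.

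Of 22 known MYC target genes, 18 rose and none fell in males, and 16 rose and none fell in females, by limma, beside 9.34% and 11.7% of all genes that rose. This list too was chosen with earlier results of these data known, so its excess over those shares is a description. The median difference was 1.05 in males and 0.83 in females. Odc1, ornithine decarboxylase of polyamine synthesis, rose by 3.42 in males and by 2.32 in females, and Srm, spermidine synthase, by 1.74 and by 1.46. Nolc1 and Bop1, which act in ribosome biogenesis, rose by 2.03 and 1.54 in males and by 1.65 and 1.83 in females. Myc itself was not called in either sex in this fit, with differences of 1.16 in males and 0.91 in females. These targets also have other regulators, and whether Myc had a part in their rise was not tested. With slide as a block 18 rose in males and 3 in females. Between arrays of the same slide 21 of the 22 differences were above 0 on slide 1 in males and on slide 5 in males and in females. Their medians were 0.93, 1.30 and 0.58, beside -0.01, 0.00 and 0.01 over all genes. Each of these values rests on 1 pair of arrays.

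In the list of MYC family and MAX network genes, 1 rose and 1 fell of 10 measured in each sex, which is close to the share of all genes called in each direction. Mxi1, a MYC antagonist, fell by 0.72 in males and by 0.81 in females, and Mlx, the partner of MONDO proteins, rose by 0.85 and by 0.57. The number that fell was 0 in males and 3 in females without slide 5, and 0 in females with slide as a block, where 2 rose in males. In females 0 rose under quantile normalization and without female dexamethasone 2 or any female vehicle array, and 2 rose under median scaling.

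Genes of the integrated stress response and the p53 pathway, which hold known inducers of Gdf15, were called in both directions. Of 21 measured, 5 rose and 4 fell in each sex, against 9.34% and 10.8% of all genes in males and 11.7% and 12.6% in females, with medians of 0.11 in males and -0.30 in females. Cdkn1a, the cell cycle inhibitor p21, rose by 5.02 in males and by 5.19 in females, Ccng1 by 1.95 and by 1.87, and Sesn1 by 1.71 and by 2.16. Bbc3, which encodes the death protein PUMA, fell, with differences of -1.83 in males and -2.70 in females. These 4 known p53 target genes, of which 3 rose and 1 fell, were the called genes of the list with the largest mean effects. They do not stand for its other p53 target genes. The number of the list that fell was 2 in males without male vehicle 1 or male dexamethasone 1. In females it was 1 under median scaling, with slide as a block, and without female vehicle 2, female dexamethasone 2 or female dexamethasone 3, and 2 without female vehicle 1, female vehicle 3 or female dexamethasone 1.

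Among 10 measured stress cytokines and receptors, 1 rose and 4 fell in each sex, against 10.8% of all genes that fell in males and 12.6% in females. Fgf21, another stress hormone of liver, fell by 4.56 in males and by 3.39 in females, Il1b by 2.37 and by 2.79, and Inhba, the activin A subunit, by 3.02 and by 1.25. The SE was larger for Fgf21, 0.91, than for Il1b, 0.30, and Inhba, 0.34. For Fgf21 the adjusted p was 0.00555 in males and 0.0222 in females (limma). Il6r, the interleukin-6 receptor, rose by 2.25 and by 2.02. For Inhba the female minus male effect was 1.77 (adjusted p = 0.283). In females 2 of the list fell without female vehicle 1 or without female dexamethasone 2.

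Markers of other cell types moved beside the genes that fell. Of 9 measured T and NK cell markers 5 fell in males and 8 in females, and of 4 neutrophil markers 3 fell in each sex, against 10.8% and 12.6% of all genes. Summed levels are sums of probe signals on the linear scale relative to the 75th percentile of the array, in which bright probes weigh most, and each is compared only with the same sum in another group. That of the T and NK markers was 2.78 to 3.21 in male dexamethasone livers against 4.85 to 6.33 in male vehicle livers, and 2.33 to 2.81 in female dexamethasone livers against 5.29 to 7.84 in female vehicle livers. The neutrophil sum was 0.268 to 0.445 in male dexamethasone livers against 1.13 to 1.56 in male vehicle livers, and 0.309 to 0.476 in female dexamethasone livers against 1.12 to 3.20 in female vehicle livers. Of these 4 markers 1 was well above background on all arrays of either dexamethasone group, so those sums are partly background signal. Both B and plasma cell markers that were measured fell in each sex and were not well above background on all arrays of either dexamethasone group. Of 13 Kupffer cell and macrophage markers 2 fell in each sex, and their sums overlapped between the groups. The endothelial sum was 23.5 to 31.6 in male dexamethasone livers against 35.2 to 48.7 in male vehicle livers, and 10.9 to 25.4 in female dexamethasone livers against 42.9 to 69.9 in female vehicle livers; of its 6 measured markers 1 rose in males, and 1 rose and 1 fell in females. Of 7 stellate cell and fibroblast markers 2 fell in males and 3 in females; their sum was 31.98 to 58.8 in female dexamethasone livers against 63.3 to 76.0 in female vehicle livers, and the male sums overlapped. The bile duct sum was 1.76 to 2.65 in male dexamethasone livers against 3.15 to 4.66 in male vehicle livers, where the 6 markers had adjusted p of 0.0603 (Epcam) to 0.892 (Krt19) by limma, and the female sums overlapped, with 1 marker lower. The part of these cell types in the fall of Egr1, Junb, Gdf15, Batf and Il1b was not tested, and in whole liver fewer cells of a type and less RNA per cell cannot be told apart.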

How the data were processed

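The authors' deposited scanner files give Agilent Feature Extraction intensities (version 9.1, per the submitters' processing notes) of single-colour rat arrays hybridized with Cy3-labelled cRNA from 500 ng of RNA, per the labels' protocols. The deposited value table holds log10 intensities, with array medians of 1.49 to 1.52 and r of 0.996 or more with the scanner values; its scaling is not given in the sources used here, and it served as an alternative.

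Processed signals were converted to log2 values relative to each array's 75th percentile over non-control spots. Spots that the scanner software marked as outliers were left out (211 over all arrays), spots of a probe were averaged, a probe was kept if 3 or more of the 12 arrays had it well above background and each group had 2 or more usable values, and the brightest probe stood for a gene. Names are those in the files, updated through the RefSeq table where it held them (20255 of 41012 probes). limma 3.58.1 (R 4.3.3) fitted 4 group means to 24298 genes, called at an adjusted p under 0.05. The fit was also run on simulated arrays without slide effects, so that run cannot show how it behaves where slides differ. All 10 members are described; from each list up to 4 called genes with the largest mean dexamethasone effect are named, and the 5 genes most correlated with Egr1 and with Gdf15. The members and lists were chosen with earlier results of these data known. Alternatives were other normalizations, filters, slide, scan day and replicate blocks, the compared groups alone, the arrays without slide 5 and single arrays left out. Slides and scan days are as the barcodes and headers give them. Slide 5 held all 4 groups, slide 1 male dexamethasone 1 and male vehicle 2, and slide 4 female dexamethasone 1 and 2 alone. Slide 2 held female vehicle 1 and 2 and male dexamethasone 2, and slide 3 held male vehicle 1 alone. Slides 1 and 2 were scanned on the same day and each other slide on a day of its own. The slide and scan day blocks therefore differ only in whether slides 1 and 2 are kept apart. Outside slide 5 no slide held both female groups, so there treatment and slide cannot be told apart in females. The number of arrays limits the precision.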

Additional observations from a re-analysis of the deposited data

How the results depend on the processing

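Over all alternatives, no called difference of a member changed direction. With slide as a fixed block 2 genes were called in females, and with scan day as a block also 2, against 4 in the chosen fit; Egr1 and Gdf15 were the 2. With only the compared groups in the fit 1 gene was called in males, Egr1. Scan day as a block called 1 gene, Gdf15, between females and males after vehicle. The 1 gene called between the sexes after dexamethasone became 0 under median scaling, no filter, slide as a fixed or random block (correlation within slides 0.51), scan day as a block and without slide 5. Leaving out 1 array at a time gave 2 to 5 calls in males, 3 to 5 in females, 0 to 0 for the difference of effects and for females against males after vehicle, and 0 to 1 after dexamethasone.

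Median scaling moved the median difference of all genes in females to 0.13, from -0.08 in the chosen scaling, and the share of called genes that rose to 65.2%, from 48.2%; after dexamethasone the share of sex differences that were higher in females moved to 65.2%, from 55.3%. The member calls in females stayed at 1 higher and 3 lower. Whether arrays with the same replicate number were paired is not settled. Correlations of their deviations were -0.00 to 0.33 for number 1, -0.00 to 0.36 for number 2 and 0.18 to 0.59 for number 3, which shared a slide. Their medians were 0.07, 0.08 and 0.36. Arrays of unlike number in different groups had -0.44 to 0.38, with a median of -0.10. Deviations from a group mean cancel within the group, so these values are tied to those of like number and are no separate baseline. With the replicate number as a block 5 genes were called in males, 4 in females, 0 for the difference of effects, 0 after vehicle and 1 after dexamethasone. Over all genes that block called 6335 in males and 7730 in females, against 4895 and 5919 in the chosen fit. The interaction used all 4 groups, so that a fit with only its groups was the same fit. Alternatives for the gene lists, the named genes and the pairs were added after seeing the data. Known MYC targets higher ranged from 16 to 19 in males and from 12 to 18 in females when 1 array was left out, and counts of the smaller lists moved by over 1.5 times, as given beside them: AP-1 partners lower in males 0 to 2, integrated stress and p53 genes lower 2 to 5 in males and 1 to 4 in females, stress cytokines lower in females 2 to 4, and MYC network genes higher in females 0 to 1. Causes of these shifts were not tested, other than that leaving out arrays or groups leaves fewer arrays. The Fos signal was near background, and 2 of its vehicle arrays gave no value well above it.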
